A study of Vitis vinifera with 6 samples.

Results

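The WRKY transcription factor family of grapevine was followed in leaves that transiently over-expressed 1 of its members, VvWRKY26, and in leaves infiltrated with a control construct. The family was taken as a list of 57 gene identifiers, and a gene was included where a probe of the array carried its identifier. Of these 57 genes, 56 had a probe, 1 probe each, among the 34369 gene probes of the array, and VIT_13s0189g00110 had none. The identifiers of the 56 genes placed them on 18 chromosomes, with up to 8 genes on 1 chromosome. Apart from VvWRKY26 (VIT_08s0040g03070, on chromosome 8), the sources used here gave these identifiers no gene name, so the other members are called by identifier and no individual role is given for them.

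WRKY proteins are plant transcription factors with a DNA-binding domain that joins the short peptide after which the family is named to a zinc finger, and most bind W-box elements in promoters. Many WRKY genes are known for fast transcriptional responses to pathogens, wounding and abiotic stress, and others for senescence or for the development of trichomes, seed coats and pollen. VvWRKY26 is the grapevine relative of Arabidopsis TTG2 and petunia PH3, which act with complexes of MYB, bHLH and WD40 proteins on epidermal cell fate, proanthocyanidin accumulation and vacuolar acidification.

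Leaf RNA from plantlets of cv. Sultana, micropropagated in vitro, was hybridized to 6 one-color Agilent arrays, 3 of plantlets infiltrated with 35S:VvWRKY26 and 3 of control plantlets, 1 plantlet line per array. The 35S promoter of cauliflower mosaic virus drives expression in most plant cells. Both groups were vacuum infiltrated with Agrobacterium tumefaciens C58C1 at an age of 5 weeks and sampled after 6 days of recovery, so the controls carried Agrobacterium too, with a vector holding a non-coding sequence; the sample labels call them wild type. Expression was transient, 6 plantlets were infiltrated per construct, and 3 lines per construct were selected for the arrays by their VvWRKY26 expression, high for 35S:VvWRKY26 and low for the control. Untreated leaves were not part of the comparison.

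All levels are log2 intensities relative to the 75th percentile of the array, so 0 is that percentile, a difference of 1 is 2-fold, and levels of different probes cannot be set against each other. The 75th percentile itself lay between 857 and 1475 intensity units on the 35S:VvWRKY26 arrays and between 799 and 1613 units on the control arrays. According to the file headers the arrays were scanned at 3 times, and every scan paired a 35S:VvWRKY26 array with a control array. Scan 1 paired replicate 1 of 35S:VvWRKY26 and of the control, scan 2 held 35S:VvWRKY26 replicate 3 and control replicate 2, and scan 3 held 35S:VvWRKY26 replicate 2 and control replicate 3. On the arrays of scan 2, 94.9% and 94.7% of gene probes were well above background, against 73.9% to 77.6% on the other 4 arrays. All 6 leaf photosynthesis markers (PSAF, PsbO, PSBS, CRD1, CHLP and HCF107) were well above background on every array. Of 9 genes annotated for pollen, flowers, phloem or laccase, 8 or 9 were also well above background on each array, so this list did not separate leaf from other organs.

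WRKY transcripts were widely detected in leaf. Of the 56 probes, 50 were well above background on all 6 arrays (89.3%), against 69.0% of all probes, and none was dim on every array of a group. Between 53 and 56 members were well above background on the 35S:VvWRKY26 arrays and between 52 and 56 on the control arrays. Control means of the 50 members lay between -4.32 and 4.26. The 6 others were VIT_15s0021g01310 and VIT_06s0004g00230, measured above background on 2 arrays each, VIT_16s0050g01480 on 3 arrays, and VIT_04s0069g00970, VIT_15s0046g02150 and VIT_04s0023g00470 on 5 arrays each. For the first 3 of these, at least 3 of the 6 values are background readings. They stay in the counts and medians over 56 members, and medians over the 50 detected members are given beside them.

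VvWRKY26, the gene carried by the construct, had levels of 3.40, 3.69 and 3.32 in 35S:VvWRKY26 replicates 1, 2 and 3, against 3.12, 3.25 and 2.57 in control replicates 1, 2 and 3. All 35S:VvWRKY26 values lay above all control values, with a gap of 0.07 between 35S:VvWRKY26 replicate 3 and control replicate 2, which shared scan 2. Since the lines were chosen by the expression of this gene, its separation is a description of the chosen lines. The means were 3.47 ± 0.19 in 35S:VvWRKY26 leaves and 2.98 ± 0.36 in control leaves (SD, n = 3 each), a log2 difference of 0.49 ± 0.34 (limma standard error) or 1.40-fold. In the fit over all genes its limma adjusted p was 1.00. The difference was 0.28 without control replicate 3 and 0.27 with normexp background correction. Within scans the 35S:VvWRKY26 array exceeded its control by 0.28 in scan 1, 0.07 in scan 2 and 1.12 in scan 3, so the scan with control replicate 3 held the largest difference. Whether the probe of VvWRKY26 lies inside the cloned coding region is not given in the sources used here, and the deposited probe therefore does not show how much of the signal came from the transgene. The paper reports that it checked the over-expression in these plantlets separately, by RT-PCR and qPCR.

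No WRKY gene passed the test. At the adjusted threshold 0 of 56 members were called, as were 0 of all probes (0% of 34369), and at an unadjusted limma p under 0.05 the counts were 0 of 56 members and 355 of all probes (1.03%). The smallest unadjusted p among the members was 0.20 (limma). The p-values measure the spread between arrays of a group, on 6 arrays only. In the fit without scan as a block, that spread holds differences between plantlet lines and between scans together. With scan as a block, 1 member was past an unadjusted 0.05 in limma (1.79%), against 5.3% of all probes. This was VIT_15s0021g01310 (limma adjusted p = 0.88), which was well above background only on the 2 arrays of scan 2.

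Of the 55 members with a usable spot on all 6 arrays, 2 were higher on every 35S:VvWRKY26 array than on every control array, or 3.64%, against 2.43% of all probes. One of them was VvWRKY26, by which the lines had been chosen, and without it the count was 1 of 54 (1.85%). Another 2 members were lower on every 35S:VvWRKY26 array, also 3.64%, against 2.26% of all probes. These shares were close to those of the whole array.

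Beside VvWRKY26, the member that was higher throughout was VIT_19s0015g01870, at 0.31, 0.40 and 0.15 in 35S:VvWRKY26 replicates 1, 2 and 3, against -0.22, 0.15 and -0.08 in control replicates 1, 2 and 3. The groups were set apart by only 0.01, between 35S:VvWRKY26 replicate 3 and control replicate 2. Its difference was 0.34 ± 0.30 (limma adjusted p = 1.00). The members that were lower throughout were VIT_04s0008g06600 and VIT_14s0081g00560. VIT_04s0008g06600 stood at -2.60, -2.42 and -2.65 in 35S:VvWRKY26 replicates 1, 2 and 3, against -2.34, -2.37 and -1.05 in control replicates 1, 2 and 3. Control replicate 3 was the array that stood apart, and the other 2 control values lay next to the 35S:VvWRKY26 values. VIT_14s0081g00560 stood at -0.39, -0.93 and -0.85 in 35S:VvWRKY26 replicates, against -0.32, -0.19 and -0.33 in control replicates. Here 35S:VvWRKY26 replicate 1 came closest to the controls. The log2 differences of these genes were -0.64 ± 0.46 for VIT_04s0008g06600 and -0.44 ± 0.31 for VIT_14s0081g00560 (both limma adjusted p = 1.00).

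**Figure D1:**
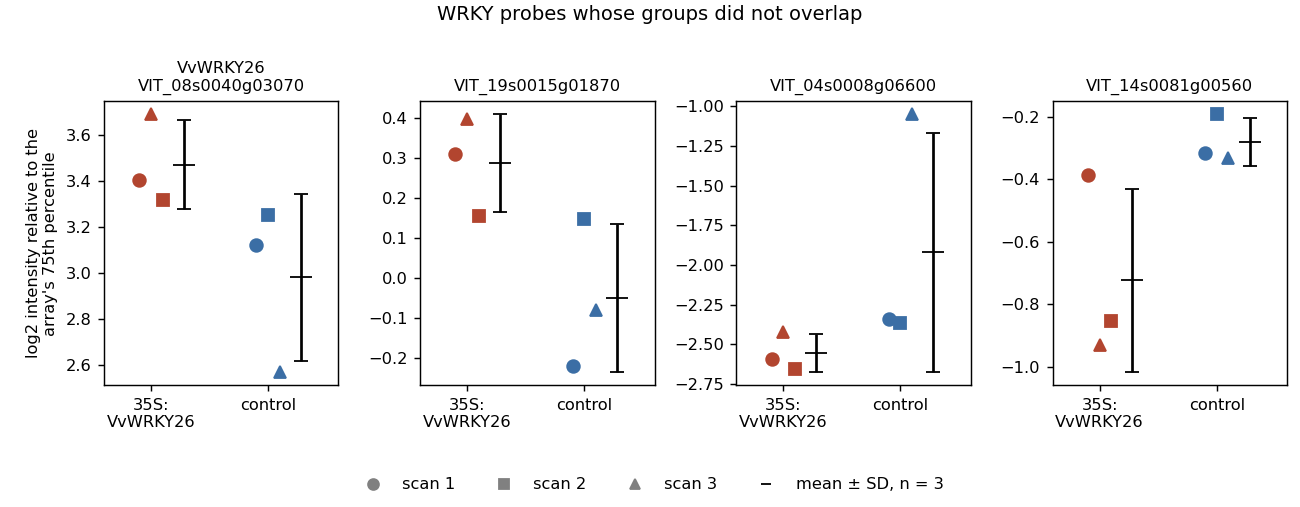
Levels of the 4 WRKY probes whose groups did not overlap, as log2 intensity relative to the 75th percentile of the array, with a separate axis for each gene. Red symbols are 35S:VvWRKY26 arrays and blue symbols control arrays, symbol shapes give the scan, and black bars the mean ± SD (n = 3). VvWRKY26 averaged 3.47 in 35S:VvWRKY26 leaves and 2.98 in control leaves, and VIT_19s0015g01870 is set apart by 0.01 only.

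Across the family, 18 of 56 members had a positive and 38 a negative log2 difference, which is 32.1% positive against 44.6% of all probes. The median difference was -0.17 over the 56 members, against -0.05 over all probes, and -0.16 over the 50 members detected on all arrays, against 0.00 over all probes so detected. The median over the 56 members was 0.11 without control replicate 3 and 0.10 without 35S:VvWRKY26 replicate 3, so its sign rested on single arrays. For 51 of the 56 members the difference was smaller than the pooled SD within groups. The largest positive differences among the 50 detected members were those of VIT_12s0059g00880 (0.54 ± 0.66), VIT_04s0008g05750 (0.53 ± 0.82), VvWRKY26, VIT_07s0005g02570 (0.39 ± 0.83, with the outlier spot of control replicate 3 left out, but -0.20 with that spot kept) and VIT_19s0015g01870. Without control replicate 1, VIT_12s0059g00880 and VIT_04s0008g05750 were at -0.0080 and -0.0528. The largest negative ones were those of VIT_07s0031g01710 (-1.56 ± 1.40), VIT_04s0069g00980 (-1.41 ± 1.05), VIT_08s0058g01390 (-1.17 ± 1.16), VIT_13s0067g03140 (-0.75 ± 0.82) and VIT_04s0069g00920 (-0.71 ± 0.66). The standard error exceeded the difference in 4 of these 10 genes.

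**Figure D2:**
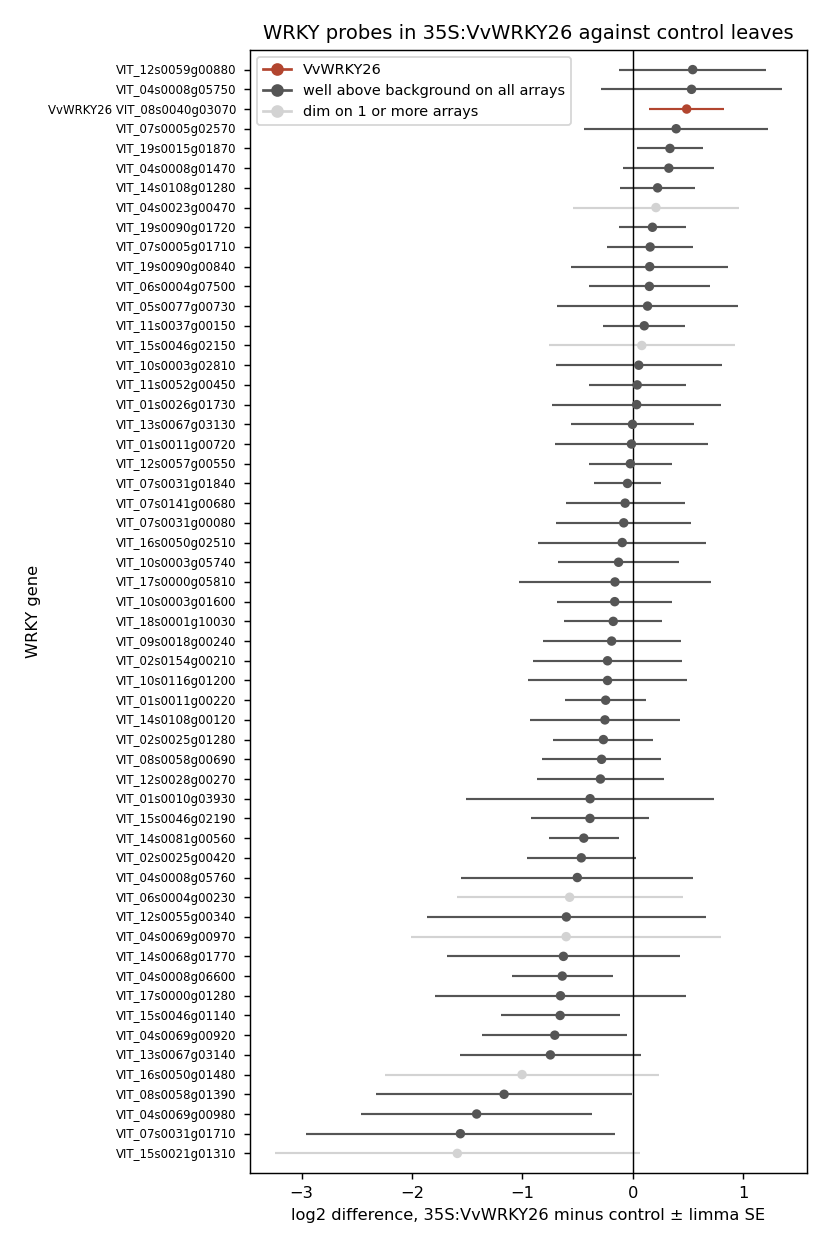
Log2 difference, 35S:VvWRKY26 minus control, of each of the 56 WRKY probes (point) with its limma standard error (line), sorted by size. VvWRKY26, at 0.49, is red, probes that were dim on at least 1 array are pale, and 38 of the 56 points lie left of 0.

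The comparison of the 2 arrays within each scan gave 3 different pictures of the family. In scan 1, 46 of 56 members were higher on the 35S:VvWRKY26 array than on the control array, with a median difference of 0.51. Of all probes 52.3% were higher in that scan, with a median of 0.02. In scan 2, only 4 of 56 members were higher on the 35S:VvWRKY26 array, with a median difference of -0.67, against 45.8% of all probes and a median of -0.07. In scan 3, 19 of 55 members were higher, with a median of -0.25, against 46.8% of all probes and a median of -0.06. The family thus lay to opposite sides in scans 1 and 2 while the median over all probes stayed near 0. A total of 43 of 56 members (76.8%) were higher in scan 1 and lower in scan 2, as were 31.2% of all probes.

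The counts for scans 1 and 2 moved with the processing. With normexp on the unprocessed median signal, in place of the detrended and background-subtracted signal, 32 members were higher in scan 1 and 14 in scan 2, and without scaling between arrays these counts were 45 and 16. Each scan holds 1 array per group, so a scan and its pair of plantlets cannot be told apart.

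Few members kept 1 direction in every scan. Of the 55 members, 3 were higher in every scan (5.45%, against 11.6% of all probes), namely VvWRKY26, VIT_19s0015g01870 and VIT_19s0090g01720. Another 6 were lower in every scan (10.9%, against 14.3% of all probes): VIT_04s0008g06600, VIT_04s0069g00920, VIT_10s0003g05740, VIT_12s0028g00270, VIT_14s0081g00560 and the dim VIT_16s0050g01480. The 4 members that were higher in scan 2 were the 3 just named as higher in every scan and VIT_07s0031g01840, which was at -2.05 on the 35S:VvWRKY26 array of that scan, against -2.36 on the control array.

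**Figure D3:**
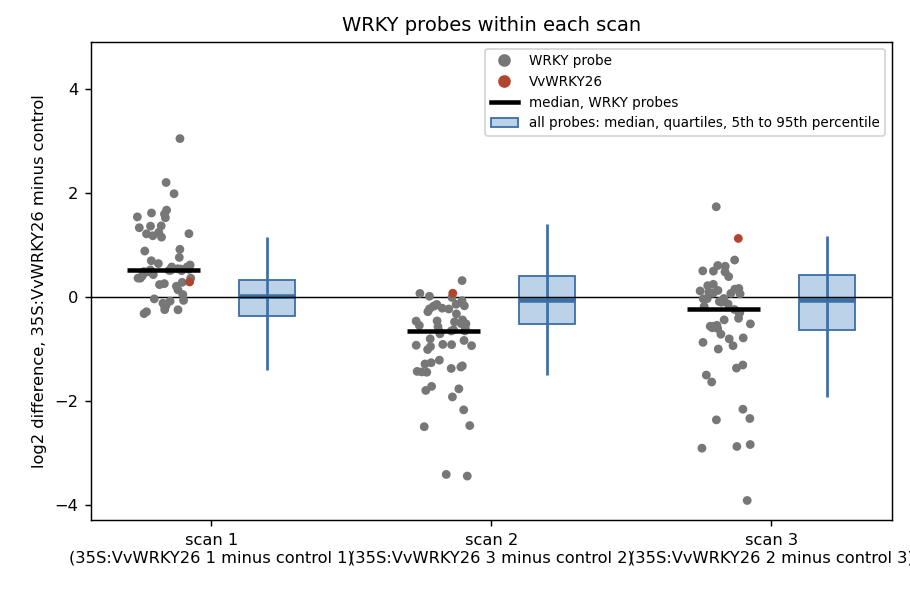
Log2 difference between the 35S:VvWRKY26 and the control array of each scan, for each WRKY probe (grey points, VvWRKY26 in red, black line at the median) and over all probes (blue box, median and quartiles, with a line over the 5th to 95th percentile). WRKY medians are 0.51, -0.67 and -0.25 in scans 1, 2 and 3, while the median over all probes lies between -0.07 and 0.02.

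What the family shared was a shift of most members on the same arrays, and these arrays lay in both groups. Relative to its own mean over the 6 arrays, the median member deviated by -0.15, 0.38 and -0.47 on 35S:VvWRKY26 replicates 1, 2 and 3, against -0.75, 0.34 and 0.83 on control replicates 1, 2 and 3. The arrays that stood furthest apart were thus control replicates 1 and 3. With members and all probes limited to those detected on every array, the medians of the members were -0.11, 0.42 and -0.55 on the 35S:VvWRKY26 arrays, against -0.71, 0.24 and 0.88 on the control arrays. The medians of all detected probes were -0.09, -0.02 and 0.17 on the 35S:VvWRKY26 arrays, against -0.14, 0.16 and -0.08 on the control arrays. The shift of the family was larger in size than that of all detected probes on each array, by little on 35S:VvWRKY26 replicate 1 and control replicate 2. The median over all probes, dim ones included, deviated by -0.25, -0.19 and 0.46 on the 35S:VvWRKY26 arrays, against -0.32, 0.40 and -0.15 on the control arrays, and was the larger in size on those 2 arrays. In a bulk leaf sample, less RNA per cell and fewer cells that express a gene cannot be told apart.

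Single members followed the same order of arrays. Control replicate 3 held the highest value of 25 members and 35S:VvWRKY26 replicate 2 that of 16, so 41 of 56 members (73.2%) peaked on an array of scan 3, as did 23.7% of all probes. Control replicate 1 held the lowest value of 29 members and 35S:VvWRKY26 replicate 3 that of 16, together 80.4% of the family and 37.6% of all probes. Among the control plantlets, replicate 3 exceeded replicate 1 in 47 of 55 members (85.5%, against 58.6% of all probes), by a median of 1.51 on the log2 scale (0.21 over all probes). A gap of 2-fold or more between these 2 controls was found in 36 members, or 65.5%, against 24.1% of all probes. Among the 35S:VvWRKY26 plantlets, replicate 2 exceeded replicate 3 in 40 of 56 members (71.4%) by a median of 0.85, whereas 28.6% of all probes did, with a median of -0.65. The shares of all probes include dim ones, and shares over detected probes are not given here. Over all probes, 34.7% peaked on control replicate 2 and 25.6% on 35S:VvWRKY26 replicate 3, the arrays of scan 2. The median deviation on 35S:VvWRKY26 replicates 2 and 3 was -0.19 and 0.46 over all probes, but -0.02 and 0.17 over detected probes. No p is attached to these shares, since members of a family on 1 array are not independent and the arrays compared were singled out after their values were seen.

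**Figure D4:**
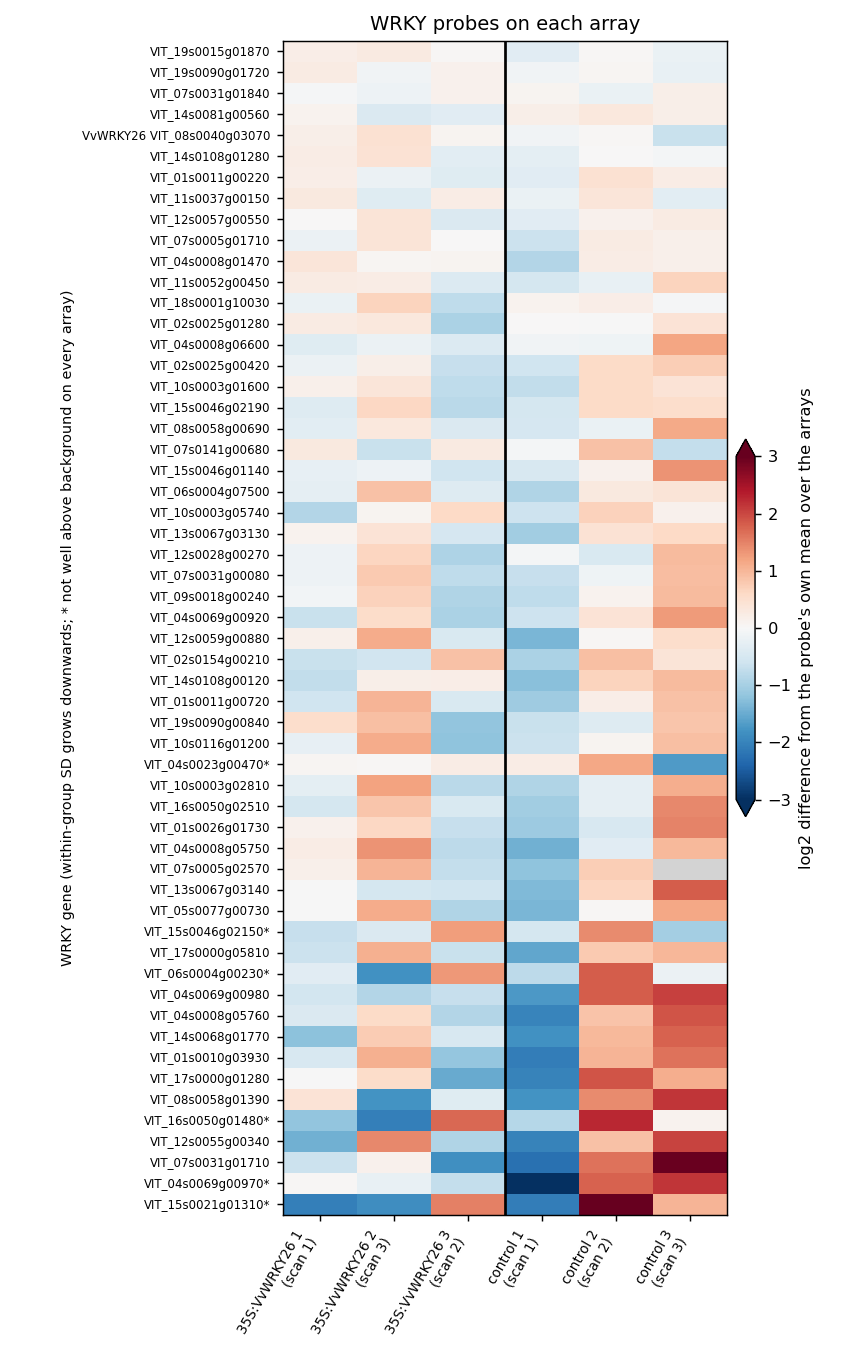
Deviation of each WRKY probe (rows) from its own mean over the 6 arrays, on the log2 scale, on the 35S:VvWRKY26 arrays (left) and the control arrays (right). Rows are sorted by within-group SD, smallest at the top, where VvWRKY26 is the fifth row, and the grey cell is an outlier spot left out. Control replicate 1 is the lowest array for 29 members and control replicate 3 the highest for 25.

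The spread within groups was wide among detected members, when set beside detected probes. The pooled SD within groups had a median of 0.78 over the 50 detected members, against 0.52 over all detected probes, and it exceeded 1 in 32.0% of these members, against 15.4% of those probes. With dim probes included, the SD exceeded 1 in 39.3% of the 56 members, against 38.6% of all probes. Its median was then 0.89 against 0.76, and its 75th percentile 1.16 against 1.38. Over the 6 arrays, 22 of the 50 members covered a range of more than 2 on the log2 scale, which is 4-fold.

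The widest range among detected members was that of VIT_07s0031g01710, with -0.49, 0.28 and -1.68 in 35S:VvWRKY26 replicates 1, 2 and 3, against -2.10, 1.77 and 3.12 in control replicates 1, 2 and 3. The control plantlets alone spanned 5.22 on the log2 scale, or 37.3-fold, and enclosed all 35S:VvWRKY26 values. VIT_08s0058g01390 stood at 0.00, -2.19 and -0.77 in 35S:VvWRKY26 replicates, against -2.20, 1.00 and 1.73 in control replicates. VIT_12s0055g00340 stood at -5.15, -2.27 and -4.63 in 35S:VvWRKY26 replicates, against -5.72, -2.83 and -1.70 in control replicates. In each of these 3 genes control replicate 1 was the lowest array and control replicate 3 the highest, and the groups overlapped.

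At the other end, 4 members had an SD within groups below 0.25: VIT_19s0015g01870, VIT_19s0090g01720, VIT_07s0031g01840 and VIT_14s0081g00560. VIT_19s0090g01720 lay at -0.97, -1.33 and -1.10 in 35S:VvWRKY26 leaves, against -1.33, -1.16 and -1.45 in control leaves. VvWRKY26 itself was next in this order, with an SD of 0.29.

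Some members have directly following identifiers on the same scaffold, and such neighbours were read side by side. VIT_04s0008g05760 stood at 2.81, 3.82 and 2.37 in 35S:VvWRKY26 replicates 1, 2 and 3, against 1.28, 4.10 and 5.13 in control replicates 1, 2 and 3. Its neighbour VIT_04s0008g05750 stood at 0.99, 2.13 and -0.01 in 35S:VvWRKY26 replicates, against -0.67, 0.44 and 1.74 in control replicates. Both had their lowest value in control replicate 1, but their differences pointed opposite ways, at -0.50 ± 1.05 and 0.53 ± 0.82. VIT_04s0069g00980 stood at -3.21, -3.53 and -3.34 in 35S:VvWRKY26 replicates, against -4.38, -0.84 and -0.61 in control replicates, so that control replicates 2 and 3 were high and control replicate 1 lay below every 35S:VvWRKY26 value. Its neighbour VIT_04s0069g00970 had the same pattern, at -4.14, -4.40 and -4.90 in 35S:VvWRKY26 replicates, against -7.18, -2.42 and -2.03 in control replicates, with control replicate 1 not well above background. Transcripts of VIT_13s0067g03140 were at -0.99, -1.52 and -1.58 in 35S:VvWRKY26 replicates, against -2.32, -0.36 and 0.83 in control replicates, and those of its neighbour VIT_13s0067g03130 at -2.93, -2.63 and -3.55, against -4.07, -2.59 and -2.44. All 3 pairs were lowest in control replicate 1, and 5 of the 6 genes were highest in control replicate 3. Probe sequences were not at hand, and whether neighbours of similar sequence shared signal was not tested.

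Single control arrays weighed heavily in the comparison. Without control replicate 3 the median of the family and the difference of VvWRKY26 moved as given above. Without control replicate 1 the median difference of the family was -0.54 (-0.22 over all probes) and that of VvWRKY26 0.56. In that setting, 6 members had an unadjusted p under 0.05 (limma), against 3.53% of all probes, and all 6 were lower in 35S:VvWRKY26 leaves, as were 1.99% of all probes: VIT_04s0069g00980 (-2.63), VIT_04s0069g00970 (-2.25), VIT_07s0031g01710 (-3.08), VIT_08s0058g01390 (-2.36), VIT_13s0067g03140 (-1.60) and VIT_04s0008g05760 (-1.62). None of them passed adjustment (limma adjusted p = 0.99 for each). Members lower on every 35S:VvWRKY26 array numbered 16 of 55 without that control, or 29.1%, against 9.63% of all probes, and the same 2 members as before were higher throughout (3.64%, against 7.81% of all probes). Without any other single array, 0 members had an unadjusted p under 0.05 (limma), against 219 to 647 of all 34369 probes.

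The leaf photosynthesis list deviated the opposite way from the WRKY family on every array. PSAF and PsbO are photosystem subunits, PSBS serves photoprotection, CRD1 and CHLP act in chlorophyll synthesis and HCF107, in Arabidopsis, in chloroplast RNA processing. Their median deviation was 0.20, -0.27 and 0.31 on 35S:VvWRKY26 replicates 1, 2 and 3, against 0.59, -0.52 and -0.49 on control replicates 1, 2 and 3. Control replicate 1, lowest for the WRKY family, was highest for this list. The sign was opposite on 6 of 6 arrays, also relative to the median of all detected probes, and on 3 of 6 arrays relative to the median of all probes. Summed linear intensity of the 5 markers with a usable spot on every array lay between 265 and 297 times the 75th percentile in 35S:VvWRKY26 leaves, and at 371, 239 and 223 times in control replicates 1, 2 and 3. The list of 9 genes for other organs had median deviations of -0.23, 0.30 and 0.18 on 35S:VvWRKY26 replicates 1, 2 and 3. On control replicates 1, 2 and 3 they were -0.77, 0.36 and 0.17. By median this list was lowest on control replicate 1, like the WRKY family, but not highest on control replicate 3. Its summed linear intensity was 15.1, 15.3 and 13.4 on the 35S:VvWRKY26 arrays, against 18.6, 12.1 and 26.5 on the control arrays. By that measure it was highest on control replicate 3 and lowest on control replicate 2. Its members differed among themselves, with 6 of 9 higher in control replicate 3 than in control replicate 1. Both laccase genes were among these 6, at 31.8-fold and 40.3-fold. Whether leaf state or tissue composition had a part in the shift of the family was not tested.

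**Figure D5:**
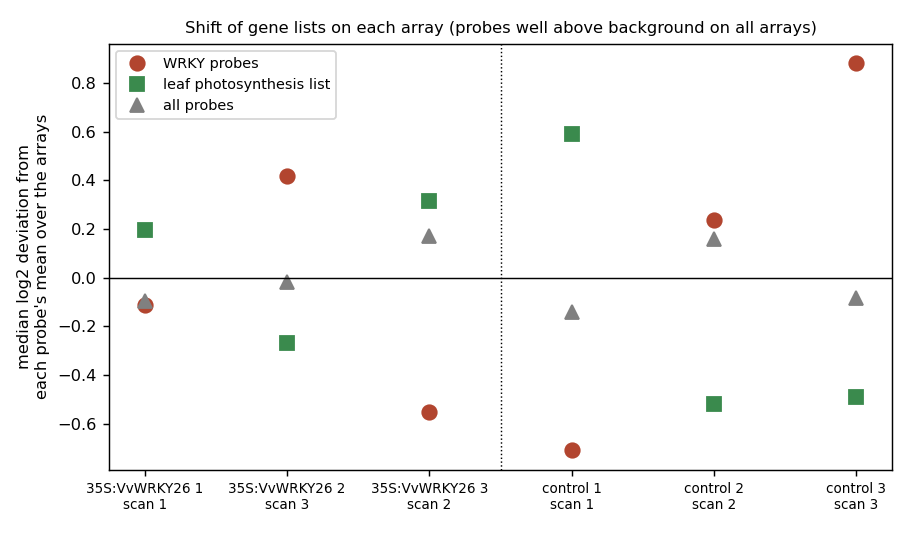
Median log2 deviation from each probe's mean over the 6 arrays, on the 35S:VvWRKY26 arrays (left) and the control arrays (right), for probes well above background on all of them. Red circles are the 50 WRKY probes, green squares the 6 leaf photosynthesis markers and grey triangles all detected probes. WRKY and photosynthesis medians lie on opposite sides of 0 on each array.

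Genes linked to TTG2-like WRKY factors or to VvWRKY26, some by co-expression only, were read beside the family, and 0 of these 8 passed the test. VvPH5 encodes a tonoplast proton pump of the P-type and VvPH1 a related P-type ATPase that, in petunia, acts together with PH5, VvMYC1 is a bHLH partner of flavonoid MYB factors, VvMYBC2-L1 a repressor of flavonoid genes, NHX1 a vacuolar cation antiporter and MATE genes encode transporters. Of the 8 probes, 7 had a positive difference (median 0.35). VvPH1 (VIT_07s0191g00260) had levels of 0.16, 0.11 and 0.13 in 35S:VvWRKY26 leaves, against -0.13, -0.10 and -0.86 in control leaves, and the groups did not overlap (difference 0.50 ± 0.35, limma adjusted p = 1.00). Of all probes, 2.43% were likewise higher without overlap. The second identifier of VvPH1, VIT_00s0477g00070, differed by 0.39 ± 0.76. The paper reports from microarray and qPCR that PH1 was not induced in these plantlets and that PH5 rose only weakly. VvPH5 (VIT_09s0002g00130) stood at 2.97, 3.47 and 3.32 in 35S:VvWRKY26 leaves, against 3.91, 1.83 and 2.47 in control leaves, so that control replicate 1 exceeded every 35S:VvWRKY26 value. VvMYC1 (VIT_07s0104g00090) differed by 0.15 ± 0.31, VvMYBC2-L1 (VIT_01s0011g04760) by 0.32 ± 0.38 and NHX1 (VIT_14s0128g00020) by 0.29 ± 0.40. The MATE genes VIT_08s0056g01000 and VIT_08s0056g01120 differed by -0.26 ± 0.41 and 0.73 ± 0.59.

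The defence list had median deviations of 0.48, 0.01 and 0.41 on 35S:VvWRKY26 replicates 1, 2 and 3, against -0.10, -0.29 and -0.70 on control replicates 1, 2 and 3, so that it was lowest on control replicate 3, where the WRKY family was highest. None of its 5 genes passed adjustment, and 1 had an unadjusted p under 0.05, against 1.03% of all probes, the pathogenesis-related PR1 gene VIT_00s0207g00160 (limma adjusted p = 1.00). It stood at 1.22, 1.15 and 1.64 in 35S:VvWRKY26 replicates 1, 2 and 3, against 0.36, -0.08 and -0.28 in control replicates 1, 2 and 3, without overlap. The PR1 gene VIT_00s0207g00130 stood at 0.14, -0.56 and 0.62 in 35S:VvWRKY26 leaves, against -0.44, -0.77 and -1.04 in control leaves, with overlap. Both PR1 genes were picked by the study from these same arrays, so their direction is no independent evidence. The same holds for their part in the list median on the control arrays. Both had their lowest value in control replicate 3. The class V chitinase VIT_00s0540g00020 did share the WRKY order in the controls, at -0.27, 0.21 and -0.04 in 35S:VvWRKY26 leaves, against -2.78, -0.51 and 0.69 in control leaves. The other chitinase, VIT_00s0540g00050, differed by -0.38 ± 0.77, and EDS5 (VIT_03s0038g00430), a transporter of the salicylic acid pathway in Arabidopsis, by 0.00 ± 0.32. EDS5 had its highest value in control replicate 3 (-1.30), whereas VIT_00s0540g00050 was lower there (-3.20) than in the other controls.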

How the data were processed

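Per the file headers, the authors' deposited intensity values came from Agilent Feature Extraction 10.5.1.1 (processed signal, after spatial detrending and background subtraction), with background and outlier marks (deposited as other flags). The deposited series table holds intensity values normalized on the 75th percentile; in it the column of 35S:VvWRKY26 replicate 2 equals the mean of replicates 1 and 3 in 34369 of 34369 rows, so the scanner intensities were used. Log2 of the processed signal minus each array's 75th percentile over gene probes was computed, with 1417 control spots and outlier spots (6 to 139 per array) left out. Groups were compared over all probes with limma 3.58.1 in R 4.3.3, without covariates (4 residual and 1.88 prior degrees of freedom), with Benjamini-Hochberg adjustment at 0.05. Precision is limited by having only 6 arrays.

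The members and lists were chosen with earlier results of these data known. Members named with values were VvWRKY26, those past an unadjusted p of 0.05 (also with scan as a block), those whose groups did not overlap, the 5 largest differences either way among members detected on all arrays, those dim on every array of a group, those with directly following identifiers, the 5 with the largest SD, and the genes of the partner and defence lists; other members named were chosen after their values were seen. Alternatives were normexp (offset 50), quantile normalization, the percentile over detected probes, no scaling, the authors' table, a filter on dim probes, dim spots at the lowest measured signal, outlier spots kept, an intensity trend, blocks for slide, scan and replicate number, the methods' t-test, and each array left out. Headers name the same slide and position for control replicates 1 and 2, and for 35S:VvWRKY26 replicates 1 and 3, at different scan times. The values of the 2 controls had the lowest correlation of any pair (0.899), and those of the 2 35S:VvWRKY26 arrays correlated at 0.952. Values differed within both pairs, so all were kept as separate arrays, and whether a header is wrong was not settled.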

Additional observations from a re-analysis of the deposited data

How the results depend on the processing

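No member passed an adjusted p of 0.05 under any alternative run, and VvWRKY26 kept a positive difference in all of them. Members with an unadjusted p under 0.05 numbered 0, but 2 with normexp, 1 with scan as a block and 0 to 6 with 1 array left out, where the 6 came without control replicate 1. Members whose groups did not overlap numbered 4 (7.27%, against 4.7% of all probes), but 2 after quantile normalization (6.89% of all probes) and 0 without scaling (2.53% of all probes). With 3 arrays against 2, where groups separate more often, they numbered 7 in the authors' table (12.5%, against 11% of all probes) and 4 to 18 with 1 array left out. The 18 came without control replicate 1 (32.7%, against 17.4% of all probes), and the shares of all probes in the other 5 settings lay between 9.32% and 13.2%. Members higher in scan 2 numbered 4, but 14 with normexp, 2 after quantile normalization and 16 without scaling. The shares of all probes higher in scan 2 under these alternatives are not given here. The median difference of the members was -0.54 to 0.11 with 1 array left out and -0.44 in the authors' table, and the difference of VvWRKY26 was 0.28 to 0.63 with 1 array left out, 0.27 with normexp and 0.38 in the authors' table. With normexp the median difference was -0.26 for the members, against -0.35 for all probes, so the members were the less negative there. The median WRKY deviation was -0.75 on control replicate 1 and 0.83 on control replicate 3, and it was -0.32 and 0.50 under normexp and -0.28 and 0.28 without scaling. Relative to the median of all probes, it was -0.4353 and 0.977 on these 2 arrays. That relative deviation was -1.004 and 0.725 under normexp and -0.4345 and 0.9769 without scaling. The sign of the median WRKY deviation itself opposed that of the photosynthesis list on 6 of 6 arrays, but on 4 without scaling. Leaving out the scaling moves all probes of an array by the same amount on the log2 scale. The cause of the other changes was not tested.

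Directions turned for several named genes, among them the largest positive differences of the family. VIT_07s0005g02570 was at -0.20 with the outlier spot kept, -0.0406 with slide or scan as a block and -0.64 in the authors' table; VIT_04s0008g05750 at -0.0115 and VIT_00s0540g00050 at 0.18 in that table; VIT_13s0067g03130 at 0.0295 over detected probes and 0.13 without scaling; VIT_00s0477g00070 at -0.45 with normexp; EDS5 (VIT_03s0038g00430) at -0.11 with normexp, -0.0207 after quantile normalization and -0.0059 in the table. With 1 array left out, the differences covered -0.0528 to 1.15 for VIT_04s0008g05750, -0.57 to 1.36 for VIT_07s0005g02570, -0.0080 to 0.95 for VIT_12s0059g00880, -2.25 to 0.32 for VIT_04s0069g00970, -0.52 to 0.30 for VIT_13s0067g03130, -1.62 to 0.31 for VIT_04s0008g05760 and -1.76 to 0.26 for VIT_12s0055g00340. They covered -0.12 to 1.61 for VIT_00s0540g00020, -0.14 to 0.16 for EDS5, -1.01 to 0.18 for VIT_00s0540g00050 and -0.16 to 1.03 for VIT_00s0477g00070.

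Same-numbered arrays deviated from their group means with correlations across genes of 0.63, -0.28 and -0.41 for numbers 1, 2 and 3. Only the arrays of number 1 shared a scan, and deviations from a group mean sum to 0 over its arrays. These correlations therefore cannot show whether the numbers pair the plantlets. With a replicate block the fit called 0 members, and VvWRKY26 differed by 0.49. Arrays of 1 scan had correlations of 0.63, 0.69 and 0.53 in scans 1, 2 and 3. The 6 members that were dim on at least 1 array are limited by signal over background.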

Other observations

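One further gene annotated as a WRKY factor in the study's material, VvWRKY59 (VIT_00s0463g00010), has a probe on the array but was not on the list of 57. It stood at -0.18, -0.05 and -0.56 in 35S:VvWRKY26 replicates 1, 2 and 3, against -0.47, -0.24 and -0.02 in control replicates 1, 2 and 3. The groups overlapped, with a difference of -0.02 ± 0.33 (limma adjusted p = 1.00). Its highest value was in control replicate 3, and its lowest in 35S:VvWRKY26 replicate 3, followed by control replicate 1.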
